A study of Mus musculus with 14 samples.

Results

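The core spliceosome genes described here were the genes whose symbol begins with Snrp, Sf3a, Sf3b, Prpf, Lsm followed by a digit, or U2af, together with the cassette exons that carry the same Entrez identifiers. They were 49 of the 19215 genes and 44 of the 13189 cassette exons listed for mouse spinal cord. The exons lay in 27 of the 49 genes, and the other 22 had no listed cassette exon. Cassette exons are those that transcripts of a gene may contain or leave out.

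Levels and splicing were measured by poly(A) RNA-seq of the whole spinal cord (WSC) of 2 mice aged 12 weeks, 1 male and 1 female, both carrying the human wild-type SOD1 transgene Tg(SOD1)2Gur/J on a B6/SJL background. RNA levels of spinal cord without this transgene were not analysed here. NOVA binding was measured by HITS-CLIP, in which RNA crosslinked to a protein by ultraviolet light is purified with that protein and sequenced. For motoneurons (MN), 8 libraries were made with the anti-GFP antibodies 19C8 and 19F7 from pooled spinal cords of C57BL/6 mice aged 3 months and hemizygous for a BAC transgene, Chat:GFP-Nova, in which the choline acetyltransferase promoter drives GFP-tagged NOVA2. Lines #6 and #17, each derived from its own founder, gave 4 libraries each. For WSC, 4 libraries were made with anti-NOVA serum from wild-type C57BL/6 mice of the same age. The paper gives endogenous NOVA1 and NOVA2 as the targets in WSC, while the MN libraries were made on tagged NOVA2. The antibody, the target proteins, the tag, the transgene and the pooling of animals therefore differ between MN and WSC as the cell type does. Their parts in any difference cannot be told apart. The Chat promoter is active in cholinergic neurons of any class, so MN here means the cells in which this promoter drives the transgene.

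The spliceosome removes introns from pre-mRNA and is built anew on each intron from small nuclear ribonucleoproteins (snRNPs), particles of a short RNA, a ring of Sm or LSm proteins and proteins of their own. U1 snRNP pairs with the 5′ splice site, U2 snRNP takes the branch point next to the U2AF proteins at the 3′ splice site, the U4/U6.U5 tri-snRNP joins, and the Prp19 complex holds the active form. Every cell needs these proteins, but some have a paralog used in neurons, among which Snrpn, an imprinted gene that encodes the Sm protein SmN, is the best known. NOVA proteins are splicing regulators of neurons that bind clusters of the letters YCAY, where Y is C or T.

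The sequences that the splicing results turn on are given first, all from the mm9 genome on the strand of the gene. U2af1, the small subunit of U2AF, has a pair of exons of 67 nt each, of which a transcript normally takes 1. They lie at chr17:31789447-31789513 (upstream) and chr17:31788591-31788657 (downstream) on the minus strand, and the capitals mark the 23 positions at which they differ:
U2af1 upstream exon: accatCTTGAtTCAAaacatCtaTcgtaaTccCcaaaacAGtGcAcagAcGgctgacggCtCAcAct
U2af1 downstream exon: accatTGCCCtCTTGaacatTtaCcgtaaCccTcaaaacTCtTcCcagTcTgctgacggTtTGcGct

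The next 7 exons are shown because their inclusion brings a stop codon into the reading frame, which the capitals mark. They lie at chr2:130002365-130002488 for Snrpb, chr7:52638495-52638554 for Snrp70, chr1:55071713-55071768 for Sf3b1, chr8:113353419-113353447 for Sf3b3 and chr3:95653618-95653713 for Prpf3, all on the minus strand, and at chr7:5020335-5020398 for U2af2 and chr12:66156421-66156520 for Prpf39 on the plus strand:
Snrpb exon of 124 nt: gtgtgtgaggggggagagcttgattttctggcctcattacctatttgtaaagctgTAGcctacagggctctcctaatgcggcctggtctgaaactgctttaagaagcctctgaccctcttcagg
Snrp70 exon of 60 nt: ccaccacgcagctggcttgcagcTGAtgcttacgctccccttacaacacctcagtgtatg
Sf3b1 exon of 56 nt: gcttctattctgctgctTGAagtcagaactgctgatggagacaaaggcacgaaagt
Sf3b3 exon of 29 nt: gtggctggTGAaggtgctgattatcacag
U2af2 exon of 64 nt: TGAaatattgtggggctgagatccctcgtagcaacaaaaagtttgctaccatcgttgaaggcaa
Prpf39 exon of 100 nt: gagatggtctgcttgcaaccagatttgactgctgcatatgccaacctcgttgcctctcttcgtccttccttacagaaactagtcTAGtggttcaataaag
Prpf3 exon of 96 nt: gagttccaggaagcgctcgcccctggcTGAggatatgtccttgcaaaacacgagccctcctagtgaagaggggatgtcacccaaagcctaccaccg

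A further exon, in Prpf18, keeps the reading frame and was used at an intermediate rate. It is shown in capitals with 20 nt of intron on each side, at chr2:4569123-4569189 on the minus strand:
Prpf18 exon of 27 nt: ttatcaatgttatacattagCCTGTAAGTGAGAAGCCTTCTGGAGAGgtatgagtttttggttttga

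The male RNA-seq library held 72006019 reads on genes and the female library 65625173. The Y-linked gene Ddx3y had 6248 and 34 reads, the neuronal marker Snap25 was at 2030 and 2080 RPKM (reads per length of exon, scaled by the library total), and the oligodendrocyte marker Mbp at 2150 and 2110 RPKM. Motoneurons are a small part of this tissue, with Chat at 9.2 and 10.4 RPKM, and Prx, a marker of the Schwann cells of nerve roots, was near 0 (0.0996 and 0.12 RPKM). Nova2 itself was at 5.53 and 3.73 RPKM. The MN CLIP libraries held 62930 to 847286 tags after identical positions were merged, against 2051725 to 5506576 in WSC, so values of MN carry more counting error. Between 32.7% and 45.4% of the MN tags within genes lay in exons, against 58.2% to 63.7% in WSC.

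The core spliceosome genes were mostly well expressed in the spinal cord. Their median level was 18.4 RPKM, and 38 of the 49 (77.6%) reached a mean of 10 RPKM, against 31.6% of all 19215 genes. In bulk tissue, fewer cells of a type and less RNA per cell cannot be told apart. Levels ran from Lsm7 at 1.24 and 0.607 RPKM in the male and the female library, a lower limit for the reason given below, to Snrpn at 239 and 233 RPKM. With 2 libraries, neighbours in the order of levels mostly could not be separated: of 48 neighbouring pairs, 12 had ranges that did not overlap, among them the first 5 (Snrpn over Prpf19, Prpf19 over Snrpd1, Snrpd1 over Sf3b2, Sf3b2 over Snrpd2, Snrpd2 over Prpf8). Farther down, these were Lsm12 over Prpf31, Lsm8 over U2af1l4, Prpf38a over Lsm2, Prpf3 over Prpf4, Prpf4 over Snrpg, Snrpg over Lsm5 and Lsm1 over Lsm7. The ranges hold only the spread of the 2 libraries. Snrpd2, Snrpg, Lsm5 and Lsm7 are lower limits, as given below, so the order is open in the pairs where they stand lower. The place of Lsm12 depends on the length used, since its listed exon length is 1224 nt and its longest coding transcript has 2256 nt.

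**Figure D1:**
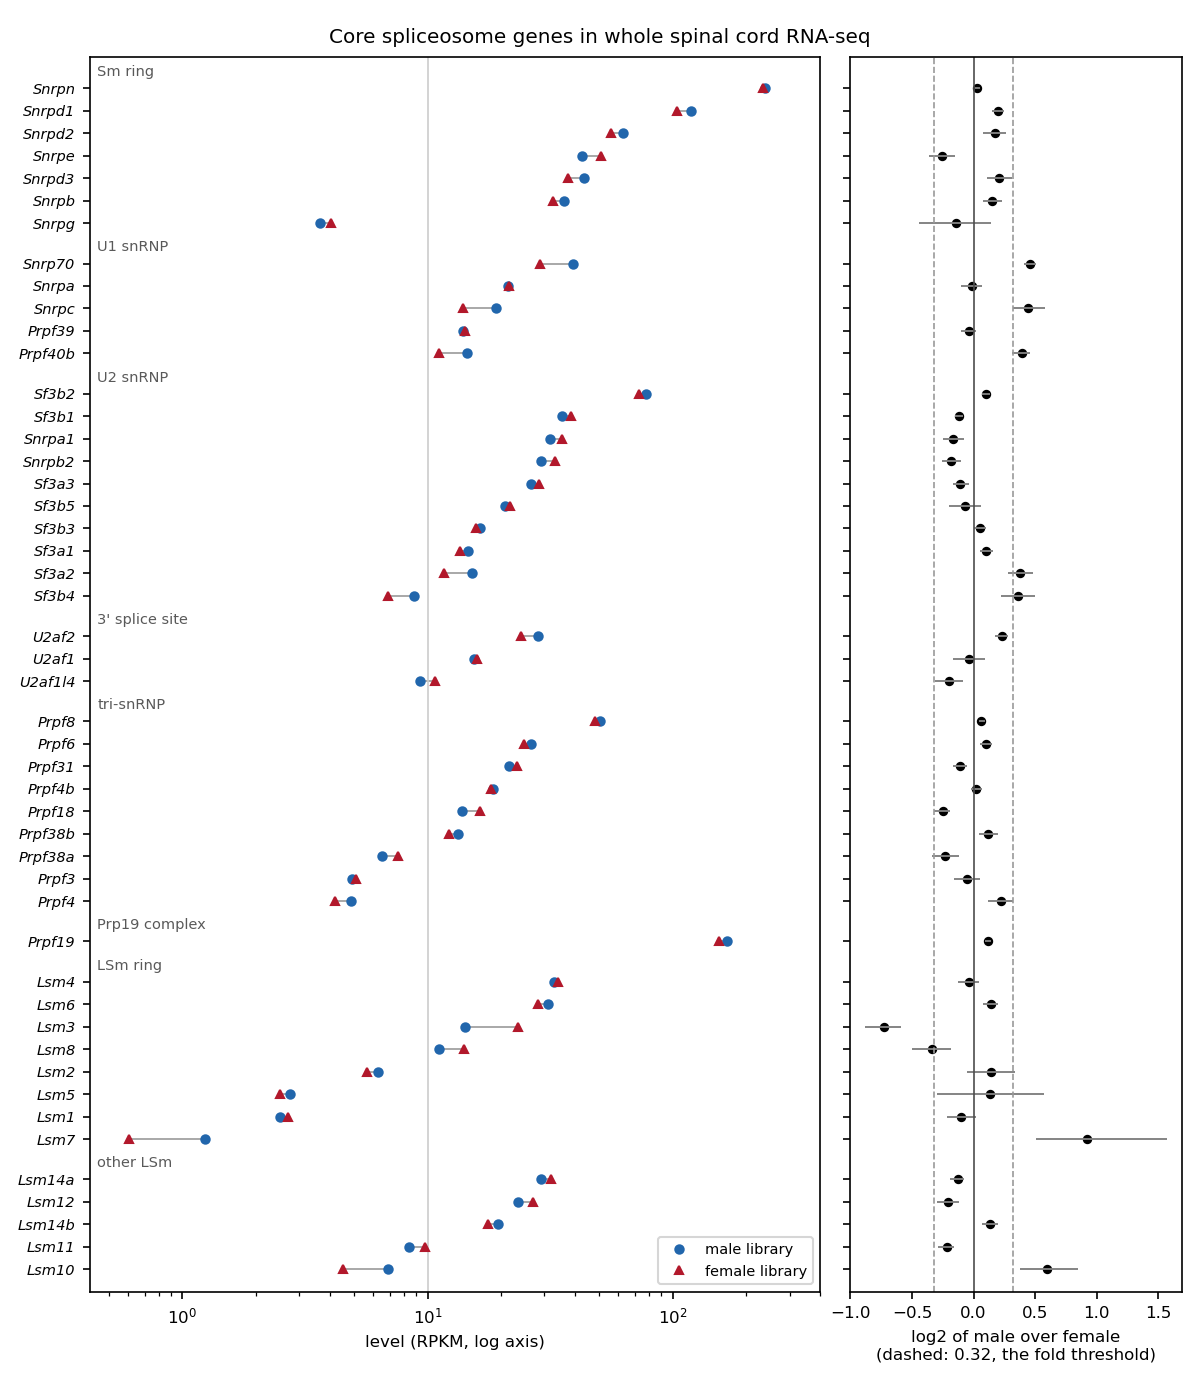
The left panel plots the level of core spliceosome genes in the male and the female library (RPKM, log axis), grouped by role, and the right panel the log2 ratio of male over female with 95% counting intervals as bars and dashed lines at the fold threshold of 0.32. The grey line marks 10 RPKM. Snrpn stands highest at 239 and 233 RPKM, Lsm7 lowest, and most ratios lie between the dashed lines.

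The Sm ring, which encircles the RNA of U1, U2, U4 and U5, had 7 members in the tables, from 3.85 to 236 RPKM with a median of 46.7. Snrpn was at 239 RPKM in the male and 233 RPKM in the female library (236 ± 3.96, SD, n = 2), the 156th highest of all genes. Snrpb, whose protein SmB fills the same place in the ring as SmN, was at 36.1 and 32.5 RPKM. Per length, Snrpn was thus 6.62 and 7.19 times as abundant as its paralog. Snrpd1 (119 and 104 RPKM), Snrpd2 (63 and 55.9 RPKM), Snrpe (42.6 and 50.8 RPKM) and Snrpd3 (43.4 and 37.6 RPKM) followed. Snrpg was at only 3.65 and 4.05 RPKM, although its protein is needed in the same ring, and 26.9% of the 74-nt windows of its transcript have an exact copy elsewhere in the genome. Reads with more than 1 position had been removed before counting, so such genes were undercounted to an unknown degree.

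Exact copies covered over 20% of the windows in 8 of the 49 genes. They were Lsm7 (95%), U2af1 (76.2%), Lsm5 (72.1%), Sf3b4 (52.4%), Snrpc (40%), Snrpd2 (29.6%), U2af2 (29.2%) and Snrpg (26.9%). The levels of these 8 genes are lower limits, and 4 of them, Lsm7, Lsm5, Snrpg and Sf3b4, are among the 11 core spliceosome genes below 10 RPKM.

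Of the U1 snRNP proteins and their partners, Snrp70, which encodes the U1-70K protein that contacts the U1 RNA directly, was highest at 39.4 and 28.7 RPKM. Snrpa (21.3 and 21.5 RPKM) and Snrpc (19.1 and 14 RPKM) encode the other U1-specific proteins. Prpf39 (13.9 and 14.2 RPKM) and Prpf40b (14.5 and 11.1 RPKM) are named after yeast proteins that hold U1 at the 5′ splice site.

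The 10 members of U2 snRNP lay between 7.84 and 75.4 RPKM. Sf3b2 was highest (78 and 72.7 RPKM) and Sf3b4 lowest (8.81 and 6.87 RPKM). Sf3b1, the SF3B subunit that clamps the branch point, was at 35.5 and 38.5 RPKM. The others, Snrpa1, Snrpb2, Sf3a3, Sf3b5, Sf3b3, Sf3a1 and Sf3a2, had means from 13.5 to 33.4 RPKM. At the 3′ splice site, the large U2AF subunit U2af2 was at 28.1 and 24 RPKM and the small subunit U2af1 at 15.5 and 15.9 RPKM. U2af1l4, a paralog of U2af1, was at 9.35 and 10.7 RPKM, and since it overlaps Tmem149 on the same strand part of its reads may be shared. U2af1 was 1.65 and 1.48 times U2af1l4, with the reads of U2af1 undercounted as given above.

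In the tri-snRNP, Prpf8, the large protein at the centre of the catalytic core, was highest at 50.7 and 48.4 RPKM, and Prpf4, a U4/U6 protein, lowest at 4.89 and 4.19 RPKM. The other 7 (Prpf6, Prpf31, Prpf4b, Prpf18, Prpf38b, Prpf38a and Prpf3) had means from 5.03 to 25.6 RPKM. Prpf38b was at 13.3 and 12.2 RPKM and its paralog Prpf38a at 6.49 and 7.61 RPKM, a ratio of 2.05 and 1.61. This ratio depends on the length used. The listed exon length of Prpf38a is 2825 nt, while its longest coding transcript has 1516 nt. For Prpf38b these lengths are 3027 and 3026 nt. Prpf19, the ubiquitin ligase that names the Prp19 complex, ranked next after Snrpn at 167 and 154 RPKM (160 ± 9.28, SD, n = 2). Its range lay above that of every tri-snRNP gene.

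The LSm ring binds U6 RNA as Lsm2 to Lsm8 in the nucleus and helps to degrade mRNA as Lsm1 to Lsm7 in the cytoplasm. Lsm4 was highest at 32.9 and 34 RPKM and Lsm7, whose level is a lower limit, lowest at 1.24 and 0.607 RPKM. Lsm8, which marks the nuclear ring, was at 11.1 and 14.1 RPKM and Lsm1, which marks the cytoplasmic ring, at 2.51 and 2.7 RPKM. Per listed exon length, the Lsm8 level was 4.43 and 5.22 times that of Lsm1, and neither transcript had repeated windows. This ratio depends on the length used. Lsm1 had more reads (1129 and 1104) than Lsm8 (601 and 693). The listed length of Lsm1 is 6236 nt, while its longest coding transcript has 2360 nt. For Lsm8 these lengths are 750 and 807 nt. Lsm6, Lsm3, Lsm2 and Lsm5 had means of 29.6, 18.8, 5.97 and 2.63 RPKM. Of the LSm proteins outside this ring, Lsm14a (29.1 and 31.9 RPKM) and its paralog Lsm14b (19.3 and 17.6 RPKM), which bind mRNA in the cytoplasm, were 1.51 and 1.82-fold apart. Lsm12 was at 23.3 and 27 RPKM. Lsm11 (8.39 and 9.79 RPKM) and Lsm10 (6.91 and 4.51 RPKM), the subunits of the U7 snRNP that processes histone mRNA, were lower.

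The male and the female library were compared next. There is 1 library of each sex, so no test can be made, and the ratios hold for these 2 libraries. Of the 48 core spliceosome genes with a mean of at least 1 RPKM, 8 differed by over 0.32 in log2(RPKM + 0.1), the fold threshold of the comparison. This was 16.7%, against 15.0% of 11940 genes, a share near that of all genes at this minimum level. The nearness depended on that level. With a mean of at least 5 RPKM, 8 of 44 members differed, against 811 of 8589 genes (9.44%). The median log2 ratio of male over female was 0.03 for the members and 0.01 for all genes. In the male library Lsm10, Snrp70, Snrpc, Prpf40b, Sf3a2 and Sf3b4 were higher, and in the female library Lsm3 and Lsm8.

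Lsm3 had the largest ratio. It was at 14.2 RPKM in the male and 23.5 RPKM in the female library, a log2 ratio of -0.73 with a 95% interval of -0.88 to -0.59 for counting error only. Lsm10 was at 6.91 and 4.51 RPKM (log2 ratio 0.60, interval 0.38 to 0.85). Both exceeded 1.5-fold, and no member with a mean of at least 1 RPKM reached 2-fold.

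The next ratios were of U1 and U2 proteins. Snrp70 was at 39.4 and 28.7 RPKM (log2 ratio 0.46, interval 0.41 to 0.51), Snrpc at 19.1 and 14 RPKM (0.44, 0.32 to 0.58) and Prpf40b at 14.5 and 11.1 RPKM (0.39, 0.31 to 0.46). The U2 proteins Sf3a2 (15.2 and 11.7 RPKM, log2 ratio 0.38) and Sf3b4 (8.81 and 6.87 RPKM, 0.36) were close behind, and Lsm8 (11.1 and 14.1 RPKM, -0.34) was higher in the female library. The U1 proteins Snrpa and Prpf39 had log2 ratios of -0.01 and -0.04. Lsm7, below the minimum level, had 101 and 45 reads. Markers of other cell types differed as well between these libraries: the 2 blood genes were higher in the male library by 0.93 and 1.28 on the log2 scale (Hbb-b1 at 85.5 and 35.1 RPKM), the 2 endothelial genes by 0.27 and 0.50, the 3 microglia genes lay between -0.68 and -0.06, and the 5 motoneuron genes between -0.96 and -0.03 (Mnx1 at 0.935 and 1.92 RPKM). The neuron, astrocyte and oligodendrocyte genes lay between -0.21 and 0.24. The part of tissue make-up in the ratios above was not tested.

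Of the 44 cassette exons, 41 in 26 genes had at least 10 junction reads in each library. For the inclusion rate, the reads on the junctions into and out of the exon were averaged, and this average was divided by its sum with the skipping reads. Mean rates lay under 10% for 11 exons (26.8%, against 18.4% of 9396 exons), from 10% to 90% for 11 (26.8%, against 27.4%) and over 90% for 19 (46.3%, against 54.2%). For 5 of the 19, the 103-nt exon of Lsm4, the 54-nt exon of Snrpd3 and the 20-nt, 30-nt and 134-nt exons of U2af1l4, no read joined the exon to the next one in either library. Each shares its upstream junction with another listed exon of the gene, so that a rate of 100% there says only that no read skipped, and not that this form was used. The 3 listed exons of Lsm4 share an upstream junction (107 and 136 reads), and of their downstream junctions that of the 99-nt form had 104 and 89 reads, that of the 81-nt form 4 and 0. Exons with all inclusion reads on 1 junction made up 26.3% of the members over 90% and 9.19% of all exons over 90%. Without exons of this kind at any rate, 9 members lay under 10% (27.3%, against 14.8% of 8199 exons), 10 from 10% to 90% (30.3%, against 28.8%) and 14 over 90% (42.4%, against 56.4%). The 3 exons with too few reads were the 91-nt exon of Lsm8, the 69-nt exon of Prpf39 and the 198-nt exon of Prpf40b.

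**Figure D2:**
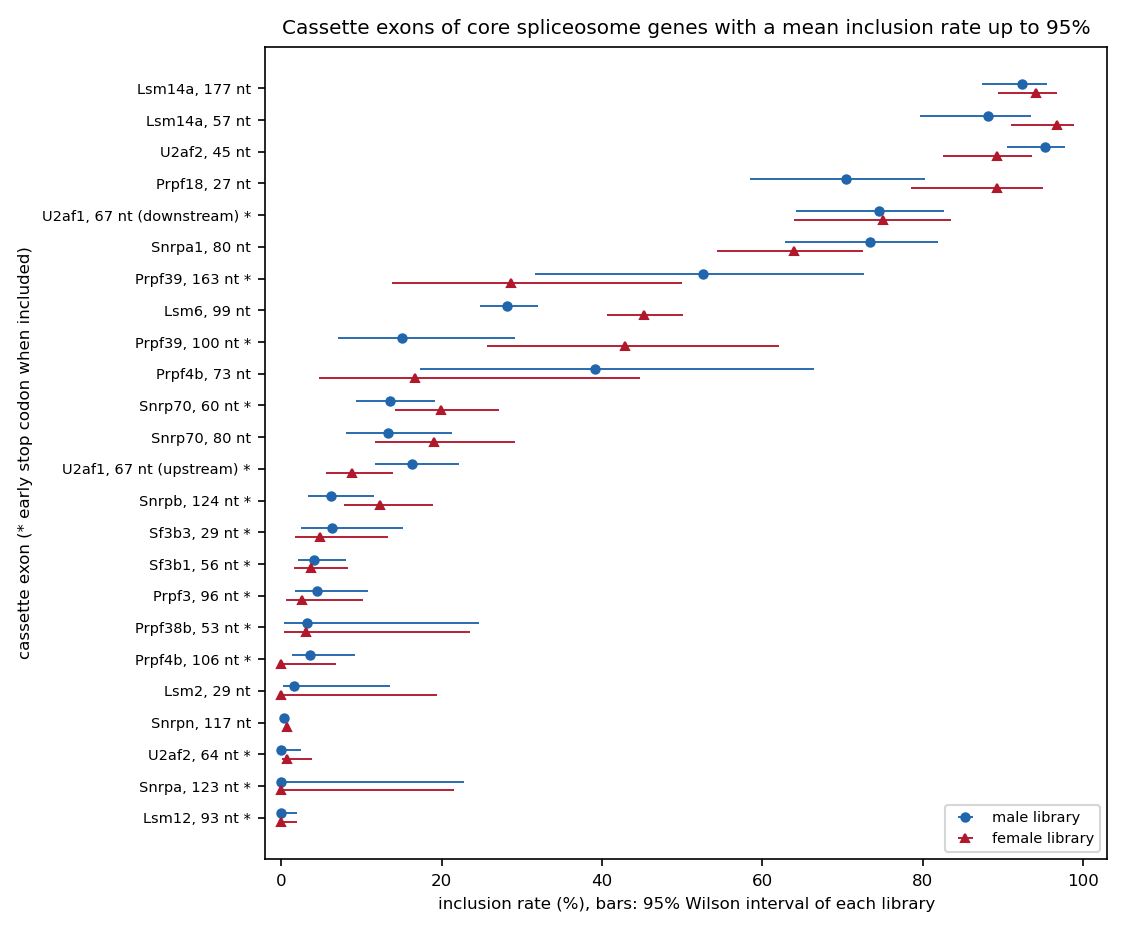
The plot shows the inclusion rate (%) of cassette exons with a mean rate up to 95% in the male and the female library, with 95% Wilson intervals as bars and an asterisk at exons whose inclusion gives an early stop codon. All starred exons other than those of U2af1 and Prpf39 have rates under 20%, and the intervals of the libraries do not overlap for the Lsm6 exon.

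An early stop codon was defined as a stop more than 50 nt before the last exon junction, the position at which transcripts are generally subject to nonsense-mediated decay. Reading annotated transcripts with each exon added, inclusion gave such a stop for 14 of the 41 exons, in 12 genes. Their median inclusion rate was 4.73%, and 9 of the 14 lay under 10%. The 23 exons without an early stop had a median of 100%, and 16 of them lay over 90%, of which 3 had no read on the downstream junction. The 19 with reads on both junctions had a median of 100% too, with 13 over 90%. The rates of rare exons depended on how inclusion was counted. With every inclusion read counted, on either junction or within the exon, against the skipping reads, the median was 17.3% for the exons with an early stop, 4 of the 14 lay under 10%, and the median of the 23 without one was again 100%. This count adds the reads of both junctions, which the junction rate averages. It therefore cannot be lower than the junction rate, and it can be higher without any body read. Rates by this count, called rates with body reads, are given beside the junction rates below where they differ by over 1.5 times. For the remaining 4 of the 41 exons no frame could be read. Each exon was read in the annotated transcript with the longest frame, with or without the exon. Inclusion of an exon already in that transcript gives the annotated frame, so the contrast of the medians is partly set by the annotation. Exons of other genes were not read in this way. Transcripts that are degraded leave few reads, so a rate here is that of the RNA present, and the effect of decay was not tested.

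Snrpb encodes SmB, and its 124-nt exon shortens the reading frame from 231 to 70 codons. In the male library it had 0 and 18 inclusion junction reads beside 135 skipping reads (6.25%, Wilson interval 3.32 to 11.5%), and in the female library 9 and 24 beside 118 (12.3%, 7.75 to 18.9%). With body reads it was at 18.2% and 23.4%. The exon was a minor form in both libraries under either count. Wilson intervals here cover counting error only.

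Snrp70 has a 60-nt exon that cuts its frame from 448 to 166 codons. Its rate was 13.5% (44 and 6 inclusion reads, 160 skipping reads) in the male and 19.9% (52 and 5, beside 115) in the female library, and with body reads 43.9% and 47%. The upstream junction carried most of the inclusion reads in both libraries. The 80-nt exon of Snrp70, which left the annotated frame at 448 codons, was used at 13.3% and 19% (24.8% and 37.4% with body reads). The intervals of the libraries overlapped for both exons.

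Sf3b1 and Sf3b3 each have a short exon with an in-frame TGA that is not in the annotation. The Sf3b1 exon of 56 nt would leave 144 of 1304 codons and was included at 4.11% and 3.65% by junction reads. With the 83 and 36 reads within this exon counted, its rate was 35.9% and 25.8%. The Sf3b3 exon of 29 nt would leave 470 of 1217 codons and was included at 6.35% and 4.84% (11.9% and 9.23% with body reads). The intervals of the libraries overlapped for both exons, and the Sf3b1 exon was rare by its junctions alone.

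The 64-nt exon of U2af2 begins with its stop codon and leaves 162 of 475 codons. It had 0 inclusion reads beside 157 skipping reads in the male and 2 beside 145 in the female library, a rate of at most 2.39% and 3.78% by the upper Wilson limits (0% and 1.36% with body reads). U2af2 also has a 45-nt exon that keeps the frame, and this was included at 95.3% and 89.3%. Of the other exons with an early stop, those of Prpf3 (4.4% and 2.52%), Prpf38b (3.23% and 3.03%), Prpf4b (106 nt, 3.52% and 0%), Snrpa (0 of 13 and 0 of 14 junction reads) and Lsm12 (0 of 193 and 0 of 188) were rare or unseen by junction reads. With body reads, those of Prpf3 (11.2% and 9.38%), Prpf38b (16.7% and 11.1%), Prpf4b (9.43% and 0%) and Lsm12 (0% and 1.57%) were higher in at least 1 library.

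Prpf39 had the most used exons of this kind besides U2af1. Its 100-nt exon, which leaves 418 of 665 codons, was at 15% in the male and 42.9% in the female library, with 34 and 14 skipping reads. Its 163-nt exon, which leaves 154 codons, was at 52.6% and 28.6%. With body reads the rates were 57% and 74.5% for the 100-nt exon and 90.4% and 75.4% for the 163-nt exon. The values differed in opposite directions for these exons, and neither difference passed the test (Fisher's exact test, FDR 0.381 and 0.26). No read joined the 163-nt exon to the exon before it in either library, so its rate rests on the downstream junction alone.

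In U2af1, the choice between the 67-nt exons was read on each side. On the side of the exon before the pair, the male library had 59 junction reads to the upstream exon and 157 to the downstream exon (27.3% upstream), and the female library 26 and 165 (13.6%). On the side of the exon after it, the reads were 21 and 121 (14.8%) in the male and 18 and 102 (15%) in the female library. The downstream exon was the main form on both sides and in both libraries. The difference between the libraries was seen on the first side and not on the other. Reads joining both exons, which gives a frame of 75 instead of 239 codons, were 2 and 6. As listed for single cassette exons, the upstream exon was at 16.3% and 8.84% (39.8% and 23.3% with body reads) and the downstream exon at 74.5% and 75%. Since a transcript with 1 of the pair counts as skipping for the other, the early stop listed for these exons applies to the joint form. Without this pair, the 12 exons with an early stop had a median rate of 3.67% and a highest rate of 40.6%.

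The exons share 44 of their 67 bases (65.7%), and 2 of the 7 read positions tested over the downstream junctions of the downstream exon had an exact copy elsewhere in the genome. Among the other exons, such copies touched junctions of the 93-nt Lsm12, 123-nt Snrpa, 79-nt Snrpe and 45-nt U2af2 exons.

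Of the other exons with an intermediate rate, those of Lsm6 and Prpf18 keep the frame. Lsm6 has a 99-nt exon before its start codon, so that the protein of 80 codons is the same either way. It was included at 28.2% in the male (221 and 118 inclusion reads, 431 skipping reads) and at 45.3% in the female library (259 and 124, beside 231). With the reads of both junctions summed rather than averaged, and the 8 and 4 reads within the exon added, it was at 44.6% and 62.6%. The 27-nt exon of Prpf18, a protein of the second step of splicing, gives a frame of 351 instead of 342 codons and was at 70.5% and 89.3%.

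Snrpa1, which encodes a protein specific to U2, has an 80-nt exon for which skipping gives the early stop. It was included at 73.4% and 63.9%, and the frame is 255 codons with it and 154 without it. A 73-nt exon listed for Prpf4b lies beyond the annotated end of that gene and had 16 and 14 junction reads (39.1% and 16.7%, or 88.5% and 76.7% with body reads). The 117-nt exon of Snrpn, outside the reading frame of 240 codons, was rare although deeply covered, at 0.274% and 0.688% with 6553 and 5417 skipping reads (1.22% and 1.81% with body reads).

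Between the libraries, 2 of the 41 exons passed Fisher's exact test on the deposited inclusion and skipping counts at an FDR of 0.1, against 4.26% of 9396 exons. They were the 99-nt exon of Lsm6 (28.2% to 45.3%, FDR 2.39e-08) and the upstream 67-nt exon of U2af1 (16.3% to 8.84%, FDR 0.011). The test compares the 2 libraries and not the sexes. With junction reads alone the U2af1 call was lost, and 3 exons passed, those of Lsm6 (99 nt), Prpf39 (100 nt) and Snrpn (117 nt).

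NOVA CLIP tags were found on 48 of the 49 genes. Lsm7 had none, and Snrpd2 and Snrpg had none in MN. Tags on each gene were compared between the 8 MN and 4 WSC libraries with the quasi-likelihood test of edgeR. Only 13 of the 49 genes passed its filter, which asks for a minimum of tags relative to library size in at least 4 libraries. These may be of either group, so a gene can enter through the group in which it is high. Prpf39, Prpf40b, Sf3b3 and Prpf6 entered through MN alone, and Prpf8 and Prpf19 through WSC alone. The test results of these genes are therefore not independent of this filter. At an FDR of 0.01, 6 of these 13 were called, 4 higher and 2 lower in MN, beside 54.5% of all 4424 genes tested (27.1% higher and 27.4% lower). A difference between MN and WSC was thus common, and the count does not set these genes apart. Scaled to totals alone, without TMM factors, the genes called were 929 higher and 1539 lower in place of 1199 and 1214, the median log2 ratio of all genes was -0.16 in place of -0.01, and the members called were again 4 higher and 2 lower. Leaving out replicate 3 of line #6 or replicate 4 of line #17, the deepest MN libraries, left 3 and 4 members tested, of which 3 were called in both cases. The values are CLIP tags scaled to the library total (CPM) and rise with the amount of RNA in the cells as well as with binding. The exonic share of all tags also differed between MN and WSC, as given above, and its part in the ratios of single genes was not tested.

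**Figure D3:**
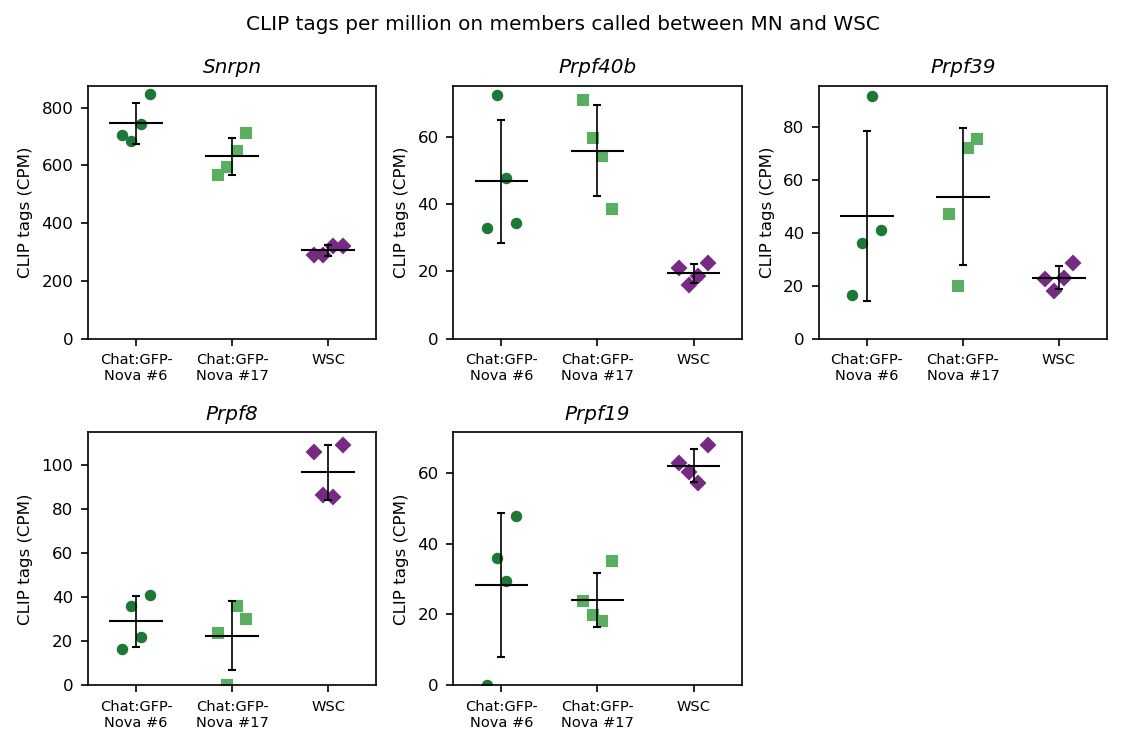
Each panel plots the CLIP tags of a called gene in each library of Chat:GFP-Nova #6, Chat:GFP-Nova #17 and WSC, with the mean as a line and the SD as bars (4 libraries each). Tags are scaled to the library's tags on the genes tested with TMM factors (CPM, linear axis from 0). All MN libraries lie above all WSC libraries for Snrpn and Prpf40b and below them for Prpf8 and Prpf19, while the groups overlap for Prpf39.

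Snrpn had by far the most tags of the members, 933 in MN and 3665 in WSC. In the MN libraries it was at 568 CPM in the lowest, 696 in the median and 847 in the highest, and in the WSC libraries at 291, 288, 321 and 321 CPM. Every MN library thus stood above every WSC library. The log2 ratio of MN over WSC was 1.22 (SE 0.09, edgeR FDR 5.30e-13), and it was 0.94 with exonic tags alone (edgeR FDR 4.96e-05) and 0.61 with tags outside exons alone (edgeR FDR 5.01e-07). Each part was scaled to its own totals, and both ratios were smaller than that of all tags.

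Prpf8 went the other way. The MN libraries were at 0, 26.8 and 41 CPM (lowest, median and highest) on 35 tags in all, and the WSC libraries at 106, 86.5, 85.2 and 109 CPM. The groups did not overlap, and the log2 ratio was -1.82 (SE 0.23, edgeR FDR 5.50e-08). With exonic tags alone it was -1.42 (edgeR FDR 2.65e-05). Prpf19 was likewise lower in MN, at 0, 26.5 and 47.8 CPM on 41 tags in all, against 63.1, 60.4, 57.3 and 68.2 CPM in WSC (log2 ratio -0.97, SE 0.22, edgeR FDR 0.000337), without overlap. Against the 4 WSC libraries, the libraries of line #6 alone gave -0.94 for Prpf19 with an edgeR FDR of 0.0206, which missed the threshold of 0.01.

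Tags on the U1 partners Prpf39 and Prpf40b were higher in MN. Prpf40b was at 32.9, 51 and 72.2 CPM in MN and at 20.9, 15.8, 18.5 and 22.3 CPM in WSC, and the groups did not overlap (log2 ratio 1.26, SE 0.25, edgeR FDR 4.81e-05). This rested on 58 tags in MN, from 2 to 22 in a library. Prpf39 was at 16.4, 44.1 and 91.8 CPM in MN and at 22.6, 17.9, 23.1 and 28.8 CPM in WSC (log2 ratio 1.52, SE 0.25, edgeR FDR 3.37e-06). For Prpf39 the lowest MN libraries lay within or below the range of WSC, and its 85 tags in MN ranged from 1 to 43 in a library.

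The other 7 tested genes did not pass. Sf3b3, which entered through MN alone, came nearest, with a median of 48.5 CPM in MN and of 30.2 CPM in WSC (log2 ratio 0.58, edgeR FDR 0.0274). Sf3b1, Lsm11, Lsm6, Lsm14a, Prpf6 and Prpf18 had log2 ratios from -0.36 to 0.39. Of the 36 genes not tested, Snrpb had 12 tags in MN and 32 in WSC. With a filter of 1 tag its log2 ratio was 1.60 (SE 0.53, edgeR FDR 0.0112), which missed the threshold of 0.01, and that of its paralog Snrpn was 1.02 in the same fit (SE 0.12, edgeR FDR 1.02e-16). Testing genes with as little as 1 tag brought in 48 members and called 11 of them, against 22.9% of 14989 genes. The added ones were Snrp70 (1.06) and Snrpd1 (1.83) higher and Sf3a2 (-2.65), Lsm1 (-1.30) and Lsm12 (-1.01) lower in MN on the log2 scale. Between the lines #6 and #17 no gene was called by edgeR, with 204 of 4424 genes and 0 of the 13 members at an unadjusted p under 0.05.

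The position of the tags within the genes differed between MN and WSC too. In 16 of the 18 members with at least 25 tags in each group, a larger share of the tags lay in introns in MN. Sf3b1 had 52.9% of its tags in introns in MN and 16.4% in WSC, and Sf3b3 91.5% and 55.8%. Prpf8 had 20% and 2.23%, and Prpf19, with most tags in exons in both groups, 4.88% and 1.77%. The exceptions were Prpf40b (75.9% and 81.6%) and Lsm11 (0% and 1.26%). The exonic share of all tags was lower in every MN library than in every WSC library, as given above, and the part of this general difference in the shares of the members was not tested.

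**Figure D4:**
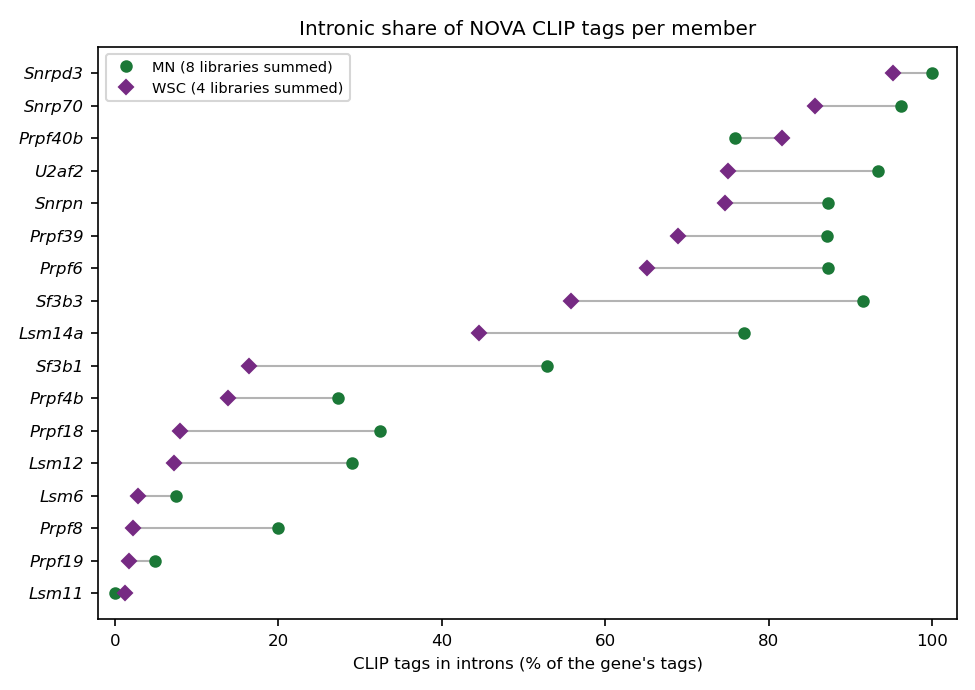
The plot gives, for members with at least 25 tags in each group, the share of CLIP tags in introns (%) in MN (8 libraries summed) and WSC (4 libraries summed), joined by a line. The MN point lies to the right of the WSC point except for Prpf40b and Lsm11, and farthest for Sf3b1 and Sf3b3.

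The 100-nt windows with the highest share of tags, averaged over libraries, are shown for 3 genes. Each library with tags on the gene counted equally, so a library with few tags weighed as much as a deep one. The NOVA letters TCAT or TCAC or CCAT or CCAC on the strand of the gene are in capitals, overlapping matches included. The windows lie at chr7:67174415-67174514 and chr8:113366270-113366369 on the minus strand in introns and at chr11:75322055-75322154 on the plus strand in a coding exon:
Snrpn intron window: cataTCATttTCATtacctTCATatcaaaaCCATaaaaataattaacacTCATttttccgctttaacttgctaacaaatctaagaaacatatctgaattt
Sf3b3 intron window: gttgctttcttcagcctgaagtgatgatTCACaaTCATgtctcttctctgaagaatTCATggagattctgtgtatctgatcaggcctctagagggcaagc
Prpf8 coding exon window: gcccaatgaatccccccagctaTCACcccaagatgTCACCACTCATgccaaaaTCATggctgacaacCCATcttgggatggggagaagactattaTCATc

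Such a window was taken for 14 genes, the 13 tested and Snrpb, and held 1 to 7 of the motifs with a median of 3. There were 5 windows with at least 5 motifs, 5 with 3 or 4, and 4 with 1 or 2, those of Snrpb (1), Lsm11, Lsm6 and Sf3b1 (2 each). The windows shown held 5, 3 and 7. Among 9615 windows of 100 nt tiled over the core spliceosome genes, 2.44% held at least as many as the Snrpn window, 19.9% as the Sf3b3 window and 0.218% as the Prpf8 window, while 42.8% held at least 2 and 74.9% at least 1. The Snrpn window had 93 tags in MN, from 7 of 8 libraries, and 184 in WSC, which were 9.97% and 5.02% of the gene's tags. The Sf3b3 window held 37.3% of the tags of its gene in MN and 9.44% in WSC, on 22 and 34 tags. In Prpf8, where WSC led, the window had 2 tags in MN and 131 in WSC. Of these 2 MN tags, 1 was the only Prpf8 tag in its library.

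Along Snrpn, which spans 158 kb in the annotation, tags piled up in a few places. The 2-kb bin that begins 110 kb from the annotated start took 17.9 ± 6.86% of the gene's tags in MN (SD, n = 8) and 7.86 ± 1.49% in WSC (SD, n = 4). It holds the intron window shown above. The last bin, at 156 kb, took 14.2 ± 7.09% in MN and 21.3 ± 1.84% in WSC. The bin at 102 kb took 9.47 ± 3.75% and 6.42 ± 0.418%. These shares were not tested.

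**Figure D5:**
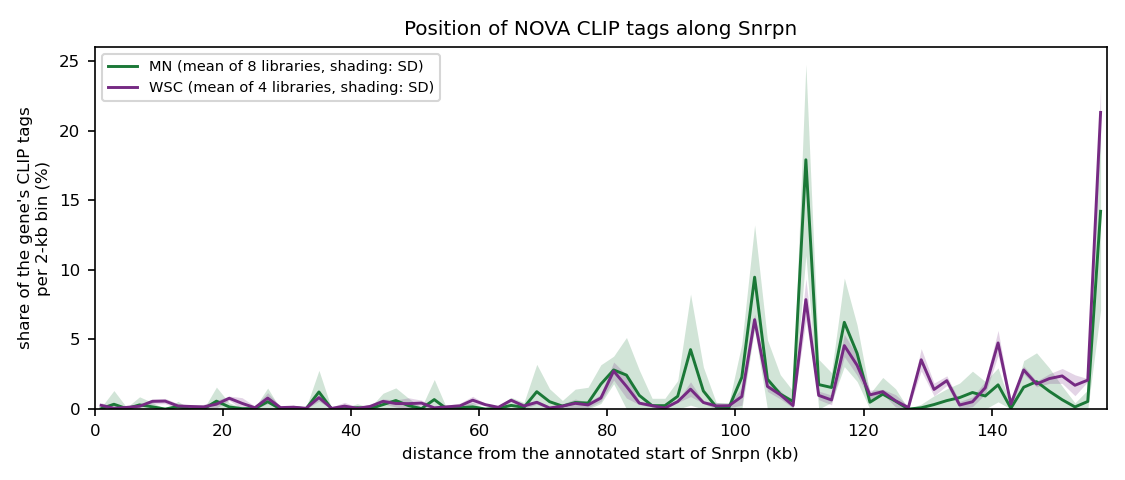
The plot shows the share of the CLIP tags of Snrpn (%) in bins of 2 kb against the distance from its annotated start (kb), as the mean of the MN and of the WSC libraries with a band of 1 SD. The highest MN peak is at 110 kb with 17.9%, and the highest WSC peak is in the last bin with 21.3%.

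Few tags lay near the cassette exons. Within 400 nt of an exon, 3 of the 44 exons had at least 20 tags in MN and WSC together. For the 56-nt exon of Sf3b1, shown above with its stop codon, the MN libraries had 0, 0, 9 and 2 tags in line #6 and 1, 0, 2 and 14 in line #17, 28 in all, and the WSC libraries 1, 0, 3 and 2. Most of the MN tags came from the deepest library of each line. MN thus had more tags there than WSC, although the MN libraries held 1963988 tags in all and the WSC libraries 15726525. This difference was not tested. For the 64-nt exon of U2af2, MN had 21 tags from 6 of the 8 libraries and WSC 67. For the 198-nt exon of Prpf40b, MN had 27 and WSC 91. The exons called between the RNA-seq libraries had few or none, with 0 tags at the 99-nt exon of Lsm6 and 1 in MN and 3 in WSC at the upstream exon of U2af1.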

How the data were processed

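The authors trimmed 100-nt RNA-seq reads to 74 nt, mapped them to mm9 with OLego, kept unambiguous reads and counted them with Quantas. They deposited a read count per gene with its RPKM, and counts per cassette exon junction. For CLIP, the authors mapped reads with Novoalign (mm9; the labels also name mm10) and deposited unique reads as BED lines whose score column was not used as a measurement. Versions are not given in the sources used here.

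Levels and ratios used the deposited RPKM (pseudocount 0.1). Exons of at least 10 junction reads in each library were compared by two-sided Fisher's exact test with Benjamini-Hochberg adjustment (FDR 0.1) in scipy 1.17.1. CLIP reads with identical position and strand were merged, counted per mm9 gene (18961 of 19215 genes matched, and 49 of 49 members) and tested with edgeR 4.0.16 (TMM, filterByExpr, quasi-likelihood, FDR 0.01). DESeq2 1.42.0, other filters, scalings, folds and thresholds, left-out libraries and single lines were the alternatives. Scripts were tested on simulated data. Replicates are biological per the labels. Exons were placed on mm9 by matching exon lengths, introns and splice sites, and every splice site matched. Repeats are exact copies of 74-nt transcript windows, every 10 nt. Wilson intervals are at 95%.

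Genes were named by role: the highest and lowest of each role, paralog pairs, the 5 largest ratios, every exon at 10% to 90% or called, every member called by CLIP, and Snrpb and Snrpn. Exons with an early stop, windows and members close to a threshold were added after their values were seen. Counts include 1 member whose values are not reported here. The members and lists were chosen with earlier results of these data known.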

Additional observations from a re-analysis of the deposited data

How the results depend on the processing

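The median level of the core spliceosome genes was 18.4 RPKM with both libraries, and 18.2 to 19.1 RPKM with either library left out. A threshold of 20 RPKM left 23 genes in place of 38. At folds of 1.5 and 2, 2 and 0 genes differed between the libraries. With a minimum mean of 5 RPKM, 8 of 44 genes differed at the main fold, against 9.44% of all genes at that level. The median inclusion rate was 74.8% (73.4% to 75% with either library left out). It was 86.7% with the reads on both junctions and within the exon summed. That sum raised 24 of 41 rates, and by its arithmetic it could lower none. Over exons with reads on both inclusion junctions (chosen after seeing the data) the median was 68.7%. The number of members called by CLIP was 6, became 11 with a filter of 1 tag, 2 with exonic tags alone and 2 with tags outside exons alone (chosen after seeing the data), and ranged from 3 to 7 with 1 library left out. Exonic tags alone left 3 members to test, tags outside exons 2, and the lowest leave-one-out count came from 3 and 4 members tested.

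Of the 6 called genes, the replicate block, DESeq2 and the other settings, where a gene could be tested, ended 1 call, that of Prpf19 with line #6 alone (log2 ratio -0.94). Of the 12 fits with 1 library left out, 10 could test Prpf39, and only 6 could test Prpf40b and 6 Prpf19. With the replicate number as a block, 6 members and 2017 of 4424 genes were called. The deviations of same-numbered libraries had correlations of -0.08 to 0.19, with 2 of 12 over 0.1. Between a Chat line and WSC they were -0.08 to 0.04. Between the Chat lines they were 0.14, 0.03, 0.09 and 0.19, against -0.16 to 0.18 for different numbers. Whether the numbers pair libraries of the Chat lines was not tested. Leaving out replicate 1 of both Chat lines, likewise chosen after seeing the data, called 7 members. The 2 RNA-seq libraries allow no test between groups, and depth and the filter limited the CLIP test to 13 members.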

Other observations

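Other spliceosome genes, listed by function and outside the symbols above, were described the same way. Of 50 such genes, 38 reached a mean of 10 RPKM, and 3 of the 49 at 1 RPKM or more differed by over 0.32 in log2(RPKM + 0.1) between the RNA-seq libraries (6.12%, beside 15.0% of all genes). All 3 encode proteins of the U11/U12 di-snRNP, which recognises the rare U12-type introns. Snrnp25 was at 19.5 RPKM in the male and 25.1 RPKM in the female library (log2 ratio -0.36), Snrnp48 at 2.95 and 4.29 RPKM (-0.52), and Rnpc3 was higher in the male library (0.36). The other U11/U12 proteins listed, Snrnp35, Zmat5, Pdcd7 and Zcrb1, had log2 ratios of -0.17, -0.07, 0.01 and -0.14. These genes were singled out after their values were seen, and 1 library of each sex allows no test.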
